A study of Oniscidea with 6 samples.

Results

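The genes described here are the cadherins, protocadherins, atypical cadherins, Dscam genes and calsyntenins, 107 of the 24421 features in a table of reads from woodlice (Oniscidea, terrestrial isopod crustaceans). They were taken by gene symbol alone: classical and other cadherins (Cdh, 23 genes), the protocadherins of the alpha, beta and gamma groups (Pcdha, 15; Pcdhb, 22; Pcdhg, 22), the other protocadherins (12), Fat1 to Fat4 with Dchs1 (5), Celsr1 to Celsr3 (3), Dscam and Dscaml1 (2), and Clstn1 to Clstn3 (3). Poly(A) RNA of fresh tissue from 3 rolling samples was compared with that of 3 stretching samples, and no treatment was given to either group. The labels name neither species, sex, stage nor tissue, and nothing in them says whether each sample was a separate animal. The p-values below thus reflect the spread between these samples alone, which may be technical. Features carry mouse gene symbols, and mm10 is the build named in the processing notes, so a symbol below stands for whatever woodlouse reads were assigned to that mouse gene.

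Cadherins are membrane proteins that hold neighbouring cells together through repeated calcium-binding domains, and catenins tie the classical ones to the actin cytoskeleton. Fat and Dachsous proteins bind each other across cell borders and, with the Celsr (Flamingo) proteins, orient cells within a sheet. Vertebrate neurons use the clustered protocadherins to tell their own branches from those of other cells, a task that insects carry out with splice forms of Dscam1, an immunoglobulin protein that also serves in arthropod blood cells. Calsyntenins carry cadherin repeats at synapses and link vesicles to the motor kinesin-1.

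Counted reads numbered 416821 to 1122154 per library in rolling and 403971 to 544157 in stretching. The adhesion genes held few of them, 584 reads at rolling 3, 565 at rolling 2 and 1328 at rolling 1, against 3204 to 4364 per stretching library. That is 0.0520% to 0.246% of the reads of a rolling library and 0.589% to 1.01% of those of a stretching library. Without Clstn1 the shares were 0.0520% to 0.246% in rolling and 0.160% to 0.243% in stretching, so that rolling 2 and rolling 3 lay below every stretching library and rolling 1 lay above them. Rolling 3 had the most reads and the lowest share on these genes. Across all tested features, libraries of one group correlated at 0.900 to 0.932 and libraries of different groups at -0.342 to -0.308 (Pearson, on the log2 scale, over features that are not independent replicates). Tested features were chosen by their mean over both groups, so a feature high in one group alone was included. Such a choice lowers the correlation between groups, and its part in these values was not tested.

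Reads were found on 93 of the 107 genes, and 18 reached the mean normalised read count of 10 over the 6 libraries at which a gene was tested. Normalised read counts are reads divided by the authors' size factor for each library. Among these 18 genes, 5 rose and 8 fell in rolling at an adjusted p of 0.05 (limma on log2(normalised read count + 1), Benjamini-Hochberg over all 2948 tested features), which is 72.2% of them. Across all tested features 75.2% were called, 37.8% higher and 37.4% lower in rolling, so the share among the adhesion genes stood near that of the whole table. Rolling and stretching values were fully apart for 12 of the 18 genes (66.7%), against 78.7% of all tested features. The median log2 fold change of the 18 genes was -0.69 and that of all tested features 0.10, and neither moved when genes without reads in a group were set at their lower bound. A gene with reads in one group alone reaches the level for testing through that group, so these counts describe the 18 tested genes and not all 107. In the fit of such a gene the group without reads adds no spread, so its p-value does not measure the spread there. This holds below for Pcdhb15 and Pcdhga8, for the partner genes Aplp1 and Itgal, and for the marker gene Epcam. Fewer cells of a type and less RNA per cell cannot be told apart in such bulk samples.

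**Figure D1:**
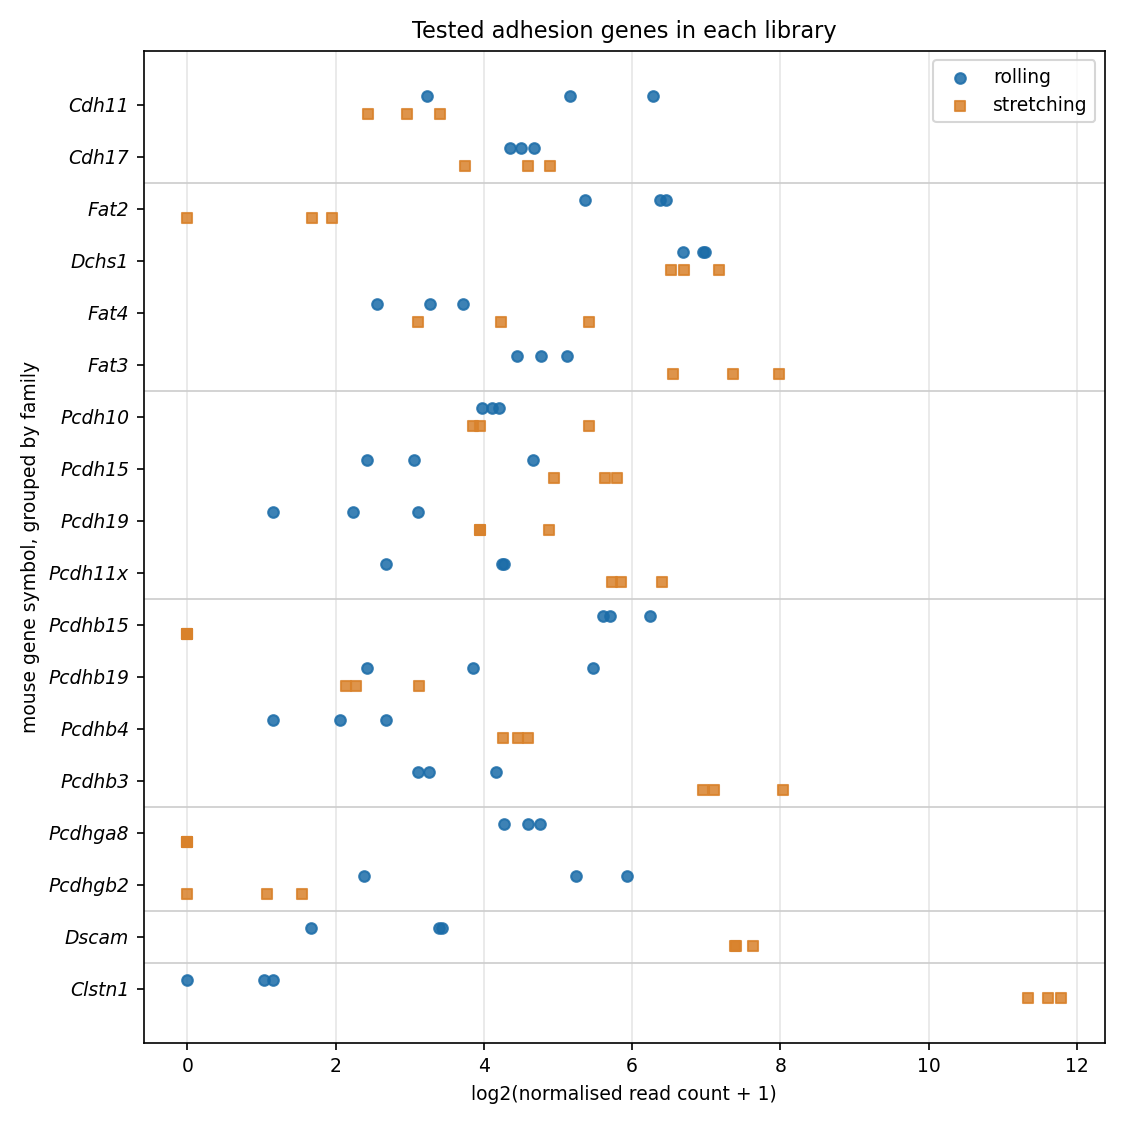
Normalised read counts of the 18 tested adhesion genes on a log2(value + 1) axis, with 1 point per library (circles: 3 rolling libraries; squares: 3 stretching libraries) and lines between families. Clstn1, Dscam, Pcdhb3 and Fat3 lie far lower in rolling, Fat2, Pcdhb15, Pcdhga8 and Pcdhgb2 lie higher, and Dchs1 and Cdh17 overlap.

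Clstn1, calsyntenin-1, showed the largest difference of the tested genes. Its normalised read counts were 1.05, 1.22 and 0 in rolling 1 to 3, against 3119, 3535 and 2587 in stretching 1 to 3. It was abundant in every stretching library and close to absent from every rolling library. Rolling held 3 reads of it and stretching 8712. The ratio of reads adjusted for depth was 3730 in favour of stretching, with a 95% counting interval of 1276 to 18090, and the fitted log2 fold change was -10.85 (SE 0.40, adjusted p 2.4e-07 in limma). Clstn1 made up 74.8% of all reads on the adhesion genes in the stretching group and 0.121% in the rolling group. The other calsyntenins did not share this pattern. Clstn3 had 18 reads in rolling and 7 in stretching, 2.0 times as many when adjusted for depth (95% counting interval 0.798 to 5.67), and Clstn2 had 2 reads in each group.

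Dscam stood at 9.49, 9.79 and 2.17 in the rolling libraries and at 196, 168 and 166 in the stretching libraries. The groups were far apart, with little spread among the stretching libraries. It fell in rolling with a log2 fold change of -4.64 (SE 0.50, adjusted p 3.0e-05 in limma), from 28 reads against 503. Dscaml1, its mouse paralogue, had 5 reads in rolling and 4 in stretching, too few to tell a difference.

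Fat2 rose and Fat3 fell in rolling, while Dchs1 and Fat4 were not called. Fat2, an atypical cadherin of cerebellar granule cells in the mouse, stood at 87.0, 82.0 and 40.2 in rolling and at 2.87, 0 and 2.22 in stretching. It rose with a log2 fold change of 4.85 (SE 0.59, adjusted p 6.5e-05 in limma), which became 4.25 without stretching 2, the library with no Fat2 read. Fat3, which shapes the dendrites of retinal amacrine cells in the mouse, stood at 26.4, 20.8 and 33.7 in rolling and at 251, 92.8 and 163 in stretching. Every stretching library lay above all rolling libraries, and Fat3 fell by 2.52 on the log2 scale (SE 0.43, adjusted p 0.00058 in limma).

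Dachsous 1 (Dchs1), the ligand of the Fat4 receptor, had 123, 102 and 126 normalised reads in rolling and 103, 143 and 90.8 in stretching. These ranges overlapped, and its log2 fold change was 0.08 (SE 0.34, adjusted p 0.85 in limma) from 432 and 316 reads. Fat4 averaged 8.57 ± 3.61 in rolling and 22.4 ± 17.6 in stretching (SD, n = 3). Much of the stretching signal of Fat4 lay in stretching 2, at 41.9, and the gene was not called, with a log2 fold change of -1.07 (SE 0.61, adjusted p 0.14 in limma). It was called without stretching 1, at -1.64 (limma adjusted p 0.040). Fat1 had 9 reads in rolling and 2 in stretching.

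None of the Celsr genes reached the level for testing. Celsr3 had 17 reads in rolling and 25 in stretching, a depth-adjusted excess of 1.89-fold in stretching (95% counting interval 0.980 to 3.73). Celsr1 had 28 reads in rolling and 5 in stretching and lay higher in every rolling library, whereas Celsr2 had 4 and 18 and lay lower in every rolling library.

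Among the 23 Cdh genes, 21 had reads and only Cdh11 and Cdh17 were tested. Cdh11, a cadherin of mesenchymal and bone-forming cells, stood at 8.43, 77.1 and 34.8 in rolling and at 9.58, 6.79 and 4.43 in stretching. Rolling 1 fell inside the stretching range and rolling 2 carried the largest value. Cdh11 rose by 1.96 on the log2 scale (SE 0.72, adjusted p 0.032 in limma), and this call was lost without any of 5 libraries. The log2 fold change was 1.26 (adjusted p 0.13) without rolling 2, 1.83 (0.092) without rolling 3, and 2.19 (0.062), 1.97 (0.097) and 1.71 (0.12) without stretching 1, 2 and 3, and it was 2.79 without rolling 1. Cdh17, the cadherin of intestinal epithelium, averaged 21.9 ± 2.50 in rolling and 21.5 ± 8.29 in stretching (SD, n = 3). Its log2 fold change was 0.10 (SE 0.41, adjusted p 0.84 in limma).

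The remaining Cdh genes were sparse. Cdh23, which with Pcdh15 forms the tip link of hair cells in the mouse inner ear, had 37 reads in rolling and 1 in stretching, a depth-adjusted excess of 28.8-fold in rolling (95% counting interval 4.86 to 1168). Cdh20, a type II classical cadherin, had 4 reads in rolling and 31 in stretching, a depth-adjusted excess of 9.95-fold in stretching (3.52 to 38.8), and each stretching library lay above all of rolling. Both were called in the authors' deposited table, at an adjusted p of 0.0063 for Cdh23 and 0.017 for Cdh20. E-cadherin (Cdh1) had 10 and 6 reads in rolling and stretching, and N-cadherin (Cdh2) had 13 and 25.

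Of the 4 non-clustered protocadherins tested, 3 were called, each lower in rolling. That share, 75%, was near the 75.2% called over all tested features. Below the level for testing, genes of this family went both ways, as with Pcdh1 and Pcdh9. Pcdh11x stood at 17.9, 18.4 and 5.43 in rolling and at 83.4, 52.1 and 56.5 in stretching, and it fell by 2.26 on the log2 scale (SE 0.50, adjusted p 0.0025 in limma). Pcdh19, which is linked to an inherited epilepsy in humans, stood at 3.69, 1.22 and 7.61 in rolling and at 14.4, 28.3 and 14.4 in stretching. It fell by 2.09 (SE 0.57, adjusted p 0.0079 in limma), and the groups of both genes were apart. Pcdh15, the tip-link partner of Cdh23, stood at 24.2, 7.35 and 4.35 in rolling and at 29.7, 54.3 and 48.7 in stretching. Rolling 1 came close to stretching 1, and the log2 fold change of Pcdh15 was -2.08 (SE 0.58, adjusted p 0.0094 in limma), -2.72 without rolling 1, and -1.91 with an adjusted p of 0.052 without stretching 2. The values of Cdh23 and Pcdh15 thus lay on opposite sides.

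Pcdh10 averaged 16.1 ± 1.36 in rolling and 23.2 ± 16.2 in stretching (SD, n = 3) and was not called (limma adjusted p 0.58), with stretching 2 at 41.9 and the other stretching libraries at 13.4 and 14.4. Below the level for testing, Pcdh1 had 0 reads in rolling and 20 in stretching, at least 8.56-fold lower in rolling when rolling is set at 3 reads. Pcdh9 had 48 reads in rolling and 4 in stretching, a depth-adjusted excess of 9.34-fold in rolling (95% counting interval 3.42 to 35.7). Pcdh20 had 18 and 37 reads, a ratio of 2.64 (1.47 to 4.93) toward stretching. The authors' deposited table called Pcdh1 at an adjusted p of 0.0076 and Pcdh9 at 0.028, and did not call Pcdh20.

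Of the 6 clustered protocadherins tested, Pcdhb15, Pcdhga8 and Pcdhgb2 rose, and Pcdhb3 and Pcdhb4 fell. In the mouse these genes lie side by side, the alpha genes share their last exons among themselves, as do the gamma genes, and reads on shared or similar stretches could have been split between members, depending on a counting step that the labels do not describe. Summed over the 59 genes, normalised read counts were 235, 220 and 255 in rolling and 226, 365 and 227 in stretching, and these ranges overlapped. Of the 47 clustered genes with reads, 13 had them in rolling alone, 15 in stretching alone and 19 in both. The 28 with reads in one group alone were 59.6% of the clustered genes with reads, against 38.8% of all features with a read. The clustered genes were sparse, with 861 reads in rolling and 763 in stretching over all of them, and the part of this sparseness in the share was not tested.

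Among the beta genes, Pcdhb15 had 51.1, 47.7 and 75.0 normalised reads in rolling and none in stretching. It rested on 205 reads, which made it at least 53.2-fold higher in rolling (limma adjusted p 2.2e-06, from a fit to which the stretching values added no spread). Pcdhb22 had 24.2, 14.7 and 19.6 in rolling and likewise no stretching read, at least 19.7-fold higher from 76 reads, but its mean of 9.75 lay just under the level for testing. Pcdhb3 went the other way and stood at 16.9, 8.57 and 7.61 in rolling and at 137, 263 and 123 in stretching. It fell by 3.86 on the log2 scale (SE 0.44, adjusted p 4.3e-05 in limma). Pcdhb3 held 7.65% of the beta reads in rolling and 74.4% in stretching. Pcdhb4 stood at 3.16, 1.22 and 5.43 in rolling and at 21.1, 18.1 and 23.3 in stretching, and fell by 2.48 (SE 0.48, adjusted p 0.0012 in limma).

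Pcdhb19 was uneven among the rolling libraries, with 43.2, 13.5 and 4.35, against 3.83, 3.40 and 7.75 in stretching. It was not called (log2 fold change 1.40, SE 0.73, adjusted p 0.11 in limma), but it was called without rolling 3 (2.15; 0.015), by DESeq2 (2.06; 0.029) and by edgeR (2.08; 0.019). Pcdhb18 and Pcdhb5 leaned the same way, with 37 and 38 reads in rolling against 12 and 13 in stretching, and their library values overlapped. Pcdhb10 had 29 reads in rolling and none in stretching, at least 7.53-fold higher in rolling, with 25 of them in rolling 1. Pcdhb17 had none in rolling and 15 in stretching, at least 6.42-fold lower in rolling.

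Both tested gamma genes rose, but they reached the level for testing almost wholly through their rolling reads. Of the 17 gamma genes with reads, 3 had them in rolling alone, 9 in stretching alone and 5 in both. The tested genes thus do not describe the gamma group. Pcdhga8 had 23.2, 18.4 and 26.1 normalised reads in rolling and none in stretching, at least 21.5-fold higher from 83 reads (limma adjusted p 3.9e-06). Pcdhgb2 stood at 4.22, 36.7 and 59.8 in rolling and at 1.92, 0 and 1.11 in stretching. Its rolling libraries differed widely, with rolling 1 the lowest, and its 93 reads against 3 gave a ratio of 24.1 (95% counting interval 8.01 to 119). The fitted log2 fold change of Pcdhgb2 was 3.64 (SE 0.87, adjusted p 0.0039 in limma), 4.71 without rolling 1 and 2.94 without rolling 3. Pcdhga5, under the level for testing, had no read in rolling and 28 in stretching, at least 11.99-fold lower in rolling.

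No alpha gene reached the level for testing, and the 15 genes held 51 reads in rolling and 23 in stretching. Pcdha10 had 19 reads in rolling and none in stretching, at least 4.93-fold higher in rolling. The entry Pcdha7-g had 17 and none, at least 4.41-fold higher. In the authors' deposited table Pcdha10 and Pcdha7-g were called at adjusted p of 0.031 and 0.028.

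**Figure D2:**
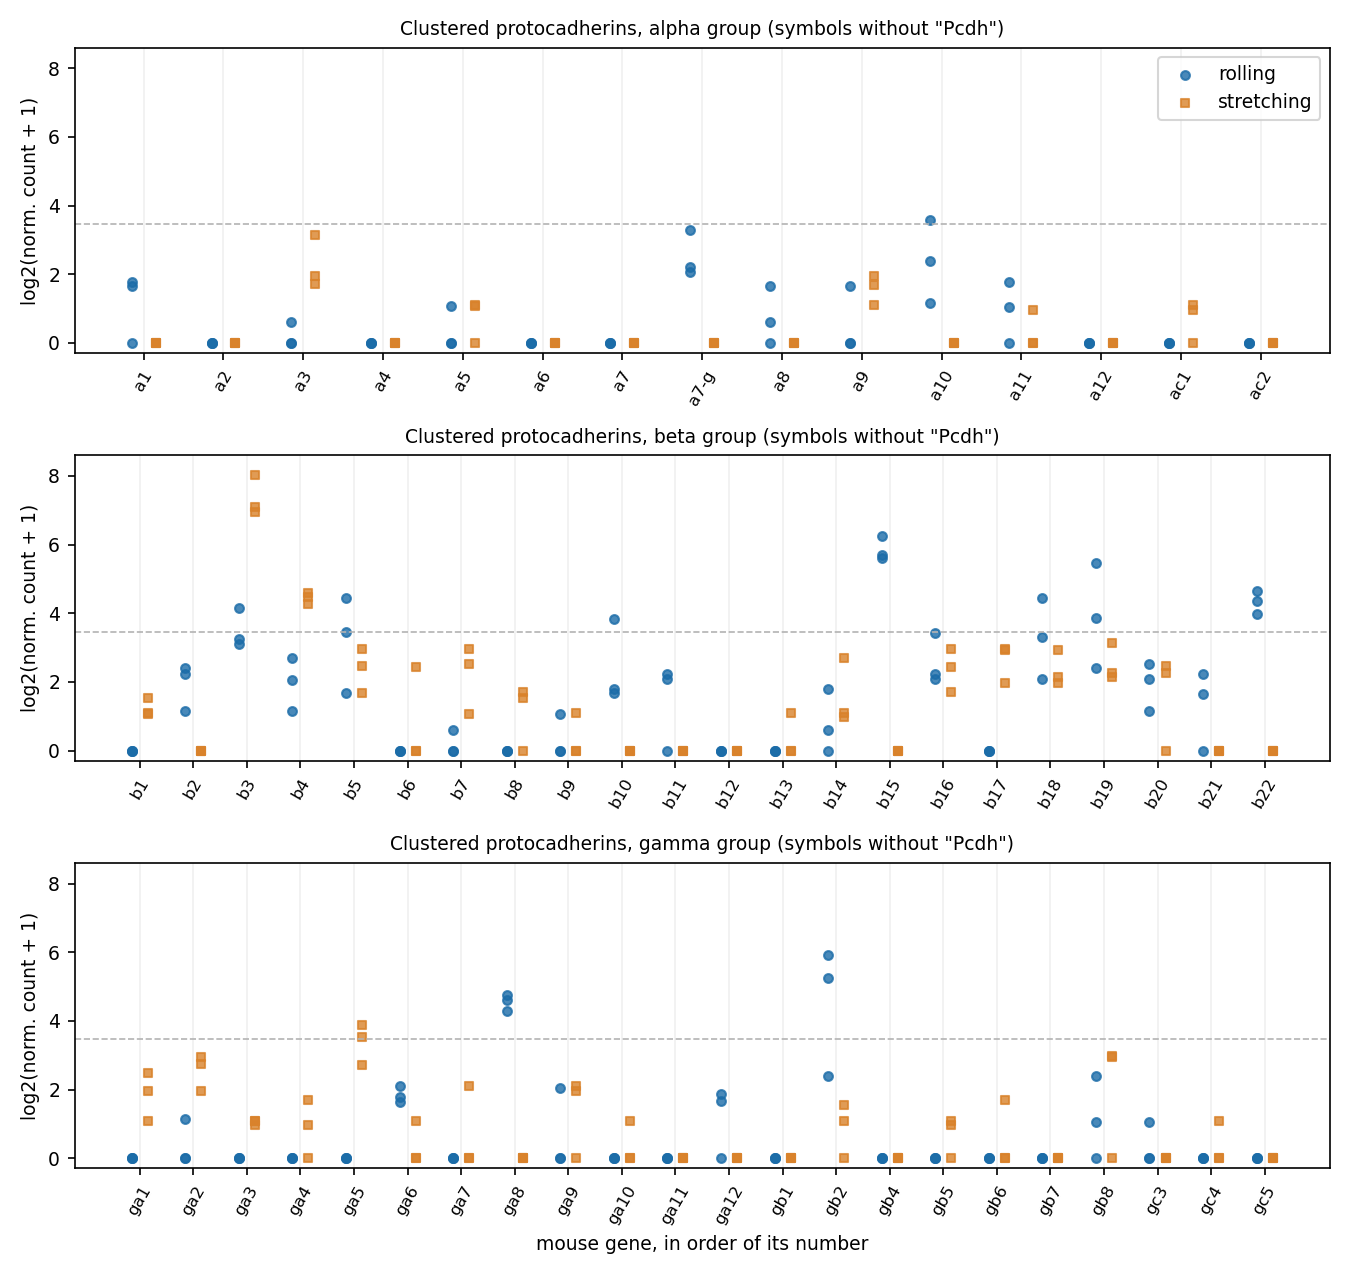
Normalised read counts of the 59 clustered protocadherins on a log2(value + 1) axis, ordered by gene number, with 1 point per library (circles: 3 rolling libraries, left; squares: 3 stretching libraries, right; dashed line: a value of 10). Pcdhb15, Pcdhb22, Pcdhga8 and Pcdhgb2 stand out in rolling, Pcdhb3 and Pcdhb4 in stretching, and most other members lie near 0 in both.

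**Figure D3:**
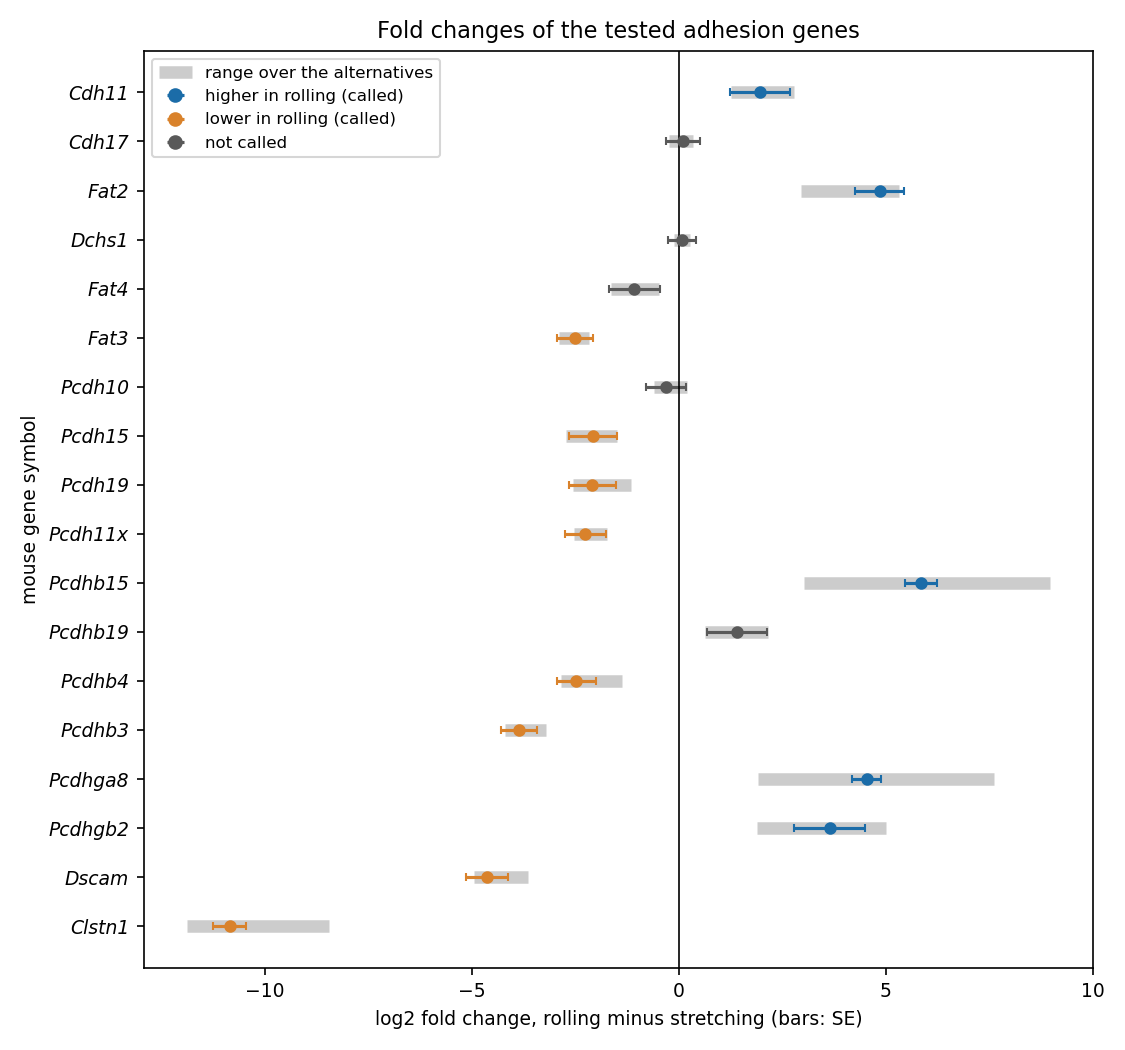
Fitted log2 fold changes, rolling minus stretching, of the 18 tested adhesion genes with their SE, in blue where higher and orange where lower in rolling at an adjusted p of 0.05, in grey where not called. Pale bars span the values under the alternative settings; Clstn1 lies at -10.85, and the widest spans belong to Pcdhb15 and Pcdhga8, whose stretching libraries had no reads.

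Seen over all members, 17 genes had reads in rolling alone and 18 in stretching alone, together 35 of the 93 with reads (37.6%), against 38.8% of all features with a read. Of the 18 tested genes, 4 combined 30 or more reads in one group with 3 or fewer in the other, namely Clstn1, Pcdhb15, Pcdhga8 and Pcdhgb2. That share was near the 24.4% of all tested features. The authors' deposited table gave an adjusted p for 65 of the 107 genes and called 23, 11 higher and 12 lower in rolling, which is 35.4% against 37.2% of all features with one. Without a filter on low values, limma called 36 of the 93 genes (38.7%), against 31.6% of all features with a read. The 75 genes with a mean under 10 rested on few reads, and 23 of them had at most 5 in all 6 libraries.

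**Figure D4:**
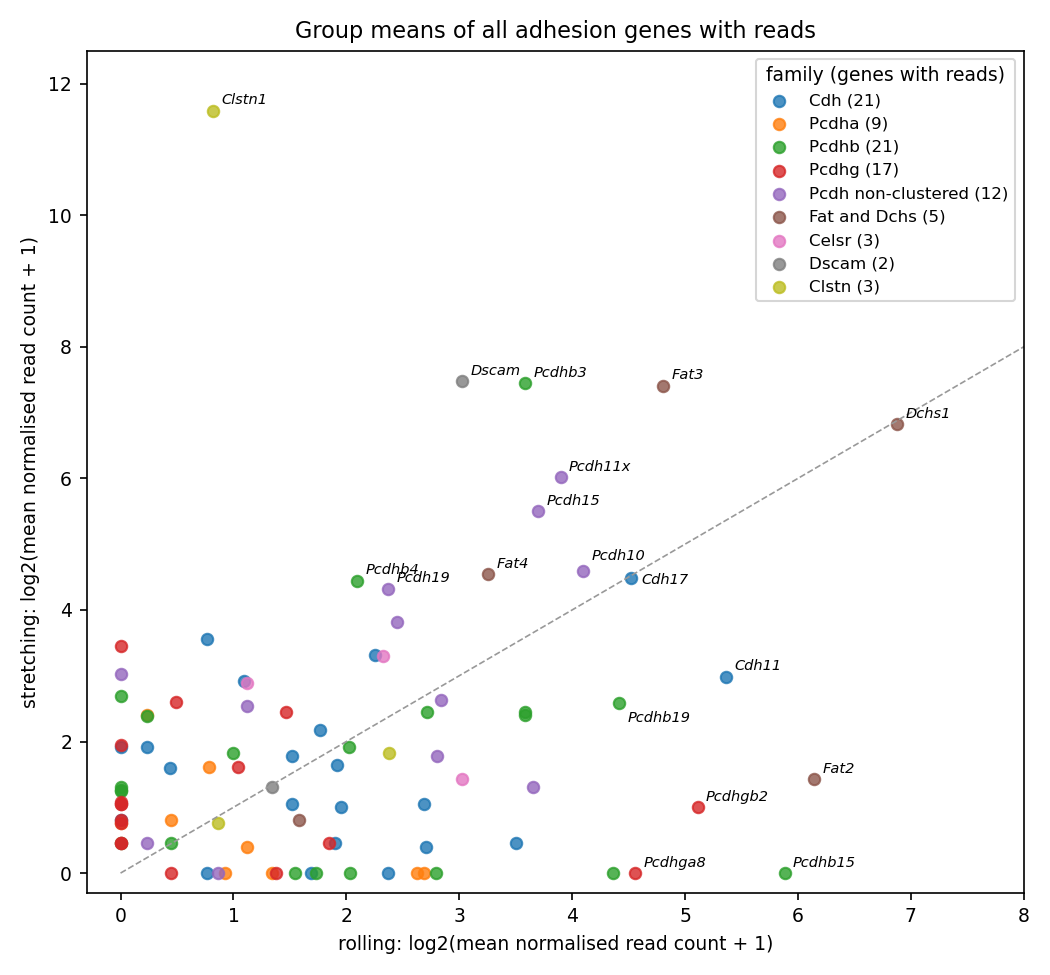
Group means of the 93 adhesion genes with reads, rolling on the horizontal and stretching on the vertical axis, both as log2(mean normalised read count + 1), coloured by family, with the 18 tested genes named and a dashed line of equal means. Clstn1 lies far above the line, Dchs1 and Cdh17 lie on it, and Fat2, Pcdhb15 and Pcdhga8 lie near the horizontal axis.

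By family, and with no test of the sums, the summed normalised read count was lower in every rolling library than in any stretching library for the non-clustered protocadherins, Fat with Dchs1, Dscam and the calsyntenins. For the non-clustered protocadherins it averaged 76.6 ± 20.0 in rolling and 185 ± 22.2 in stretching (SD, n = 3). For Fat and Dchs1 the values were 224 ± 24.1 and 306 ± 51.1 in rolling and stretching. The lower sum of Fat with Dchs1 came largely from Fat3, whereas Fat2 was higher in every rolling library and Dchs1 overlapped. In the stretching libraries Clstn1 held nearly all calsyntenin reads and Dscam nearly all reads of Dscam with Dscaml1. These 3 sums thus do not describe their families as a whole. The gamma group averaged 63.9 ± 27.3 in rolling and 31.2 ± 7.91 in stretching, with overlap of rolling 1 at 39.5 and stretching 2 at 39.6. Pcdhgb2 and Pcdhga8 held 93 and 83 of the 209 gamma reads in rolling, and 3 and 0 of the 87 in stretching. The gamma sum thus does not describe the other gamma genes. The Cdh genes averaged 111 ± 45.2 and 75.3 ± 19.5 in rolling and stretching and also overlapped. Cdh11 held 111 of the 367 Cdh reads in rolling and 20 of the 216 in stretching. Rolling 1 has the largest size factor, and as a share of all reads of each library the non-clustered protocadherins stood at 0.0349%, 0.0137% and 0.00499% in rolling and at 0.0373%, 0.0453% and 0.0307% in stretching. Fat with Dchs1 then took 0.0886%, 0.0413% and 0.0172% in rolling and 0.0835%, 0.0609% and 0.0456% in stretching, so on that scale rolling 1 lay inside the stretching range or above it. All members without Clstn1 summed to 699, 690 and 635 in rolling and to 1063, 1087 and 963 in stretching.

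Partners of these adhesion proteins were taken from 6 lists with 132 genes in the table, of which 28 were tested. Among the tested genes 8 rose and 17 fell, 89.3% against the 75.2% called over all tested features. The lists were chosen with earlier results of these data known, so nothing is drawn from this difference, which was not tested. Of the catenins and junction plaque proteins, 3 were tested, 1 rose and 1 fell, with a median log2 fold change of -0.48. Afadin (Mllt4), which joins nectins to actin, stood at 42.7, 67.3 and 47.8 in rolling and at 4.79, 2.26 and 4.43 in stretching, a log2 fold change of 3.49 (SE 0.41, adjusted p 5.1e-05 in limma). Alpha-catenin (Ctnna1), which couples cadherins to actin, stood at 1.58, 1.22 and 6.52 in rolling and at 27.8, 13.6 and 18.8 in stretching and fell by 2.53 (SE 0.56, adjusted p 0.0025 in limma). The groups were apart for both. Tight junction protein Tjp1 was not called, at 112 ± 90.9 in rolling libraries and 123 ± 26.5 in stretching libraries (SD, n = 3). Beta-catenin (Ctnnb1) had no read in any library, and its level could not be compared.

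Of the planar polarity partners, 3 were tested, 1 rose and 2 fell, with a median log2 fold change of -1.61. The Wnt receptor Fzd3, which acts with Celsr proteins in mouse axon guidance, stood at 4.22, 4.90 and 5.43 in rolling and at 665, 750 and 412 in stretching, a log2 fold change of -6.66 (SE 0.36, adjusted p 8.8e-07 in limma). Prickle1 rose by 3.51 (SE 0.63, adjusted p 0.00076 in limma), and by 2.77 without stretching 2, where it had no read. Intu, a planar polarity effector, fell by 1.61 (limma adjusted p 0.032) with overlapping groups, and its adjusted p was 0.12 and 0.069 without rolling 1 and 3 and 0.079 and 0.14 without stretching 1 and 2. Ret, a receptor kinase, was alone in being tested from the list of desmosomal and other cadherin-repeat proteins. It had 3 reads in rolling against 68 in stretching, 29.1 times as many in stretching after adjustment for depth (95% counting interval 9.55 to 145), and it fell (limma adjusted p 8.0e-05).

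In the list of other immunoglobulin adhesion molecules, 3 of 9 tested genes rose and 5 fell, with a median log2 fold change of -1.37. Dcc, the netrin receptor, stood at 16.9, 17.1 and 8.69 in rolling and at 278, 311 and 306 in stretching and fell by 4.35 (SE 0.37, adjusted p 6.4e-06 in limma). Robo2, a Slit receptor, fell by 2.39 (SE 0.41, adjusted p 0.00060 in limma). Ncam2, a neural cell adhesion molecule, rose by 3.97 (SE 0.46, adjusted p 4.4e-05 in limma), from 158 reads in rolling against 6. Scaling to library totals left 5 of these 8 calls.

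The list of neurexins, neuroligins and calsyntenin partners had 8 tested genes, of which 1 rose and 6 fell, with a median log2 fold change of -1.86. All 3 members of the amyloid precursor family, to which mouse calsyntenins are joined through X11 adaptor proteins, fell together. Aplp1 had no read in rolling and 127 in stretching, at least 54.4-fold lower in rolling (limma adjusted p 2.8e-06). Aplp2 averaged 1.47 ± 0.554 in rolling libraries and 86.6 ± 28.7 in stretching libraries (SD, n = 3), and App averaged 4.06 ± 2.10 in rolling libraries and 83.2 ± 6.87 in stretching libraries. Their log2 fold changes were -5.11 (SE 0.42, adjusted p 5.5e-06 in limma) for Aplp2 and -4.14 (SE 0.41, adjusted p 1.7e-05 in limma) for App. Of 4 tested integrins, the matrix and cell receptors, 2 rose and 2 fell, with a median log2 fold change of 0.36, or 0.26 with Itgal at its bound. Itga4 averaged 80.6 ± 14.2 in rolling libraries and 1.65 ± 1.97 in stretching libraries, Itgal had 76 reads in rolling and none in stretching, at least 19.7-fold higher in rolling, and Itgam averaged 1.07 ± 1.05 in rolling libraries and 60.1 ± 13.3 in stretching libraries (SD, n = 3). The limma adjusted p was 3.3e-05 for Itga4, 3.8e-06 for Itgal and 1.9e-05 for Itgam.

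**Figure D5:**
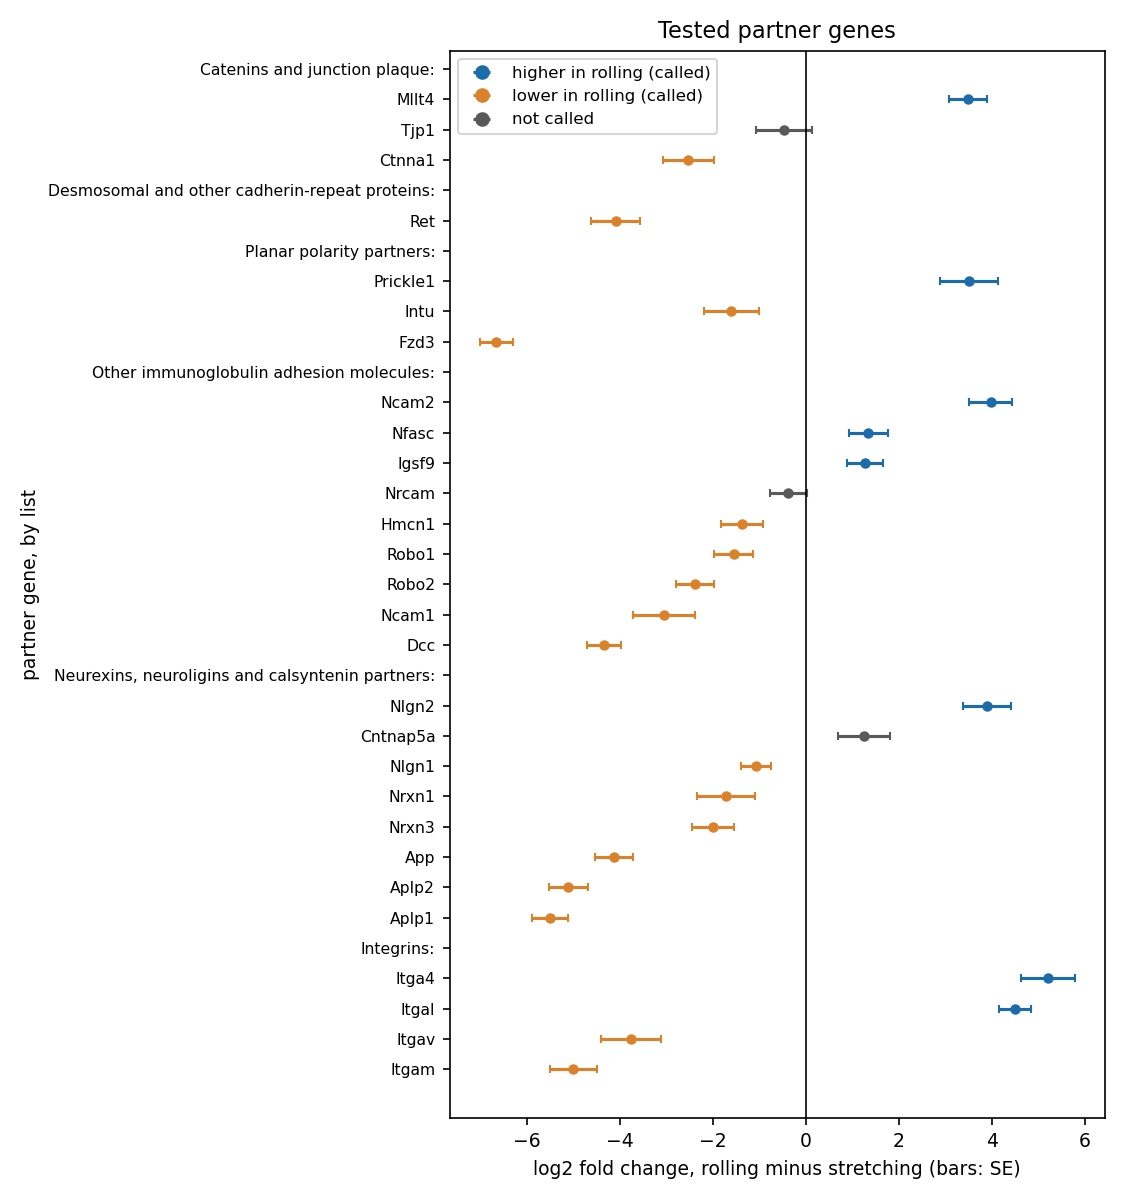
Fitted log2 fold changes, rolling minus stretching, with SE, of the 28 tested partner genes under their lists, in blue where higher and orange where lower in rolling at an adjusted p of 0.05 and in grey where not called. Fzd3 lies lowest, at -6.66, and the amyloid precursor family, Dcc, Itgam and Ret also lie below -4.

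Marker lists of cell types also differed in their summed levels, and their part in these results was not tested. The difference came largely through 1 gene each for muscle, neuron and epithelium. For haemocytes and blood cells it came largely through the tested genes of the list. The summed normalised read count of 16 muscle markers was 14092 to 41640 in rolling and 5194 to 7146 in stretching, with 7 tested, 4 higher and 1 lower. Acta1, skeletal muscle actin, held 89.9% of these reads in rolling and 66.9% in stretching. It rose by 2.48 on the log2 scale (adjusted p 0.011 in limma), with an adjusted p of 0.073 without stretching 1 and 0.060 without stretching 3. The other 15 muscle markers summed to 2258, 1633 and 3398 in rolling and to 3539, 611 and 1613 in stretching, which overlapped. Among the 4 called higher, titin (Ttn) lost its call under 7 of 16 alternative settings. Calls covered 71.4% of the tested muscle markers and 80% of the tested epithelium markers, against 75.2% of all tested features. The calcium pump Atp2a1 rose (log2 fold change 8.21; limma adjusted p 7.2e-07), the myosin Myh6 fell (-6.47; limma adjusted p 0.00020), with values of -5.53 and -7.65 when stretching 1 or stretching 2 was left out, and Tnni2 and Ckm had no read. The sum of 16 neuron markers was 148 to 321 in rolling and 88.2 to 113 in stretching, and the only tested one, the tubulin Tubb3, rose by 1.71 (limma adjusted p 0.0057; 0.053 with scaling to library totals). Tubb3 held 81.0% of the neuron marker reads in rolling and 51.6% in stretching, and the other 15 summed to 27.2 to 48.0 in rolling and to 41.2 to 53.2 in stretching. The sum of 14 epithelium markers was 238 to 404 in rolling and 140 to 196 in stretching, with 3 of 5 tested genes higher and 1 lower. The keratin Krt10 held 76.0% of these reads in rolling and 1.02% in stretching and rose by 6.74 (adjusted p 8.6e-06 in limma). The sum of the other 13 epithelium markers went the other way, at 62.2 to 95.6 in rolling and 135 to 195 in stretching. Among those 13, however, Epcam and Esrp1 (log2 fold change 3.41) were called higher in rolling, and Krt5 was called lower. As a share of all reads of a library the whole epithelium list took 0.0332% to 0.0838% in rolling and 0.0232% to 0.0428% in stretching, which overlapped. Epcam had 70 reads in rolling and none in stretching, at least 18.2-fold higher in rolling, Krt5 fell (-6.44, and -7.07 without rolling 1), and 4 claudin and polarity markers (Cldn3, Cldn4, Cldn7 and Crb3) had no read. The sum of 12 haemocyte and blood cell markers was 2.45 to 7.91 in rolling and 84.9 to 290 in stretching. Both tested genes, Itgam and complement C3, were lower in rolling and together held most of the stretching reads of this list. Of its 10 markers with reads, 3 had them in rolling alone and 3 in stretching alone. C3 had 3 reads in rolling and 326 in stretching, a depth-adjusted excess of 140-fold in stretching (95% counting interval 47.3 to 680), and was fitted at -5.68 on the log2 scale, or at -5.05 and -6.40 when stretching 1 or stretching 2 was left out. The haemoglobins Hbb-bs and Hba-a1 had no read.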

How the data were processed

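Poly(A) RNA of 3 rolling and 3 stretching woodlouse samples was sequenced. For each feature and sample, the deposited table gives a signal value, namely reads after division by the sample's size factor. Per the submitters' processing notes, BWA, DESeq2 and mouse build mm10 are named without versions or roles; how reads were counted and against which annotation is not stated there. The authors' deposited table also holds log2 fold changes, a score (the Wald statistic) and p-values, raw and adjusted. Columns named curl and strait were read, from what the words mean, as rolling and stretching, and their digit as the replicate.

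When each column was divided by its lowest value other than 0, every entry came out as a whole number of reads within 1.0e-09. One read corresponds to a normalised value that differs between libraries, and 3 reads to 1.58 to 3.67. Counting intervals (95%, exact) and the floor of 3 reads over a group cover counting error only. Where a group had no read, a fold is a lower bound against that floor.

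The main test was limma 3.58.1 (R 4.3.3) on log2(value + 1), two-sided and with a trend of variance on mean, over the 2948 features with a mean of at least 10, adjusted by Benjamini-Hochberg and called at 0.05. Fold changes are rolling minus stretching; this scale understates low features. The test was first tried on simulated data. Alternatives were pseudocounts 0.5 and 8, a minimum mean of 100 or none, scaling by TMM, by library totals or by quantiles, DESeq2 1.42.0 and edgeR 4.0.16 on the recovered reads, a replicate block and leaving out each library. Marker sums without their leading gene were added after the data were seen. Members and lists were chosen with earlier results of these data known. Genes are named where tested, where one group had at least 30 reads or where the authors' deposited table called them, or, in a family with no such gene, where the mean was highest (Celsr3); partner and marker lists are represented by their called genes of smallest adjusted p and, for partner lists, the gene of highest mean. A few other genes (Clstn2, Clstn3, Dscaml1, Fat1, Celsr1, Celsr2, Cdh1, Cdh2, Ctnnb1, Acta1, Ttn, Krt10, Esrp1 and markers without reads) were named to complete a family or list, after their values were seen.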

Additional observations from a re-analysis of the deposited data

How the results depend on the processing

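Over the 18 tested adhesion genes and the alternatives, 262 of 272 results kept their side of the threshold, 6 lost the call (Cdh11 without 5 libraries, Pcdh15 without stretching 2), 4 gained it (Pcdhb19, Fat4) and 0 called genes changed sign. Sign and side of the threshold were both kept in 255; the sign changed in 7 results of uncalled genes, 4 for Dchs1 (lowest -0.11 with library totals, against 0.08), 2 for Cdh17 (-0.24 without stretching 2 and -0.07 with library totals, against 0.10) and 1 for Pcdh10 (0.20 without stretching 2, against -0.31). Wherever they were tested, 11 of the 13 called genes kept their call. Without a filter, limma called 5773 features, 2927 higher and 2846 lower, and 36 adhesion genes, 15 higher and 21 lower: 8 Cdh, 3 Pcdha, 9 Pcdhb, 5 Pcdhg, 5 non-clustered Pcdh and 2 Celsr genes among them. The partner lists then had 6 called catenin and junction, 6 desmosomal, 5 planar polarity, 13 immunoglobulin, 14 neurexin and 10 integrin genes. At a minimum mean of 100, fewer features were tested, and 284 were called, 147 higher and 137 lower, with 1 adhesion gene (Clstn1, lower; 0 higher, 0 at an unadjusted p under 0.05). There limma called 0 Fat and Dchs genes and 0 catenin and junction genes (0 and 0 at an unadjusted p under 0.05), 1 planar polarity gene and 1 immunoglobulin gene. Fat2 and Fat3, with means of 35.7 and 97.9, were not tested at that level, nor were Mllt4 and Ctnna1. Dchs1 and Tjp1, not called in the main fit either, were still tested. With scaling to library totals, 5 immunoglobulin genes were called, and the mean sums in rolling were 187 for Pcdhb, 258 for Fat and Dchs, 762 for all members and 760 without Clstn1, the last against 1124 in stretching; the cause was not tested. Leaving out 1 library gave 0 to 1 called Cdh genes and 11 to 13 called adhesion genes (13 without rolling 3). Counts over the adhesion genes under the other scalings, DESeq2 and edgeR were 13 or 14. Same-numbered samples did not deviate together (correlations 0.021, -0.0066 and 0.0087), and not every sample correlated best with its own number. With the replicate block 2224 features and 13 adhesion genes were called. Reads per gene limit all genes under a mean of 10.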
